A study of Mus musculus with 12 samples.

Results

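Immature cortical interneurons (CINs) of the neonatal mouse were described here by 2 histone marks at their promoters, acetylation (H3K27ac) and trimethylation (H3K27me3) of lysine 27 of histone H3. The 4 peak lists of CINs, 2 for each mark, were taken from the 8 peak lists and 12 samples of the series. Every protein-coding transcription start site (TSS) of GENCODE vM21 basic was classed by the window from 1 kb upstream to 100 bp downstream of it in mm10, with a mark counted as present when both replicates had a peak over that window. Of 41438 such promoters, belonging to 21851 genes, 19628 carried H3K27ac only, 3228 H3K27me3 only, 581 both marks and 18001 neither.

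Neocortex came from postnatal day 2 (P2) *Gad67-GFP* heterozygote pups of mixed background with outcrossing to CD-1, and was dissociated and sorted by GFP. The GFP+ cells were the CINs, and the GFP- cells of the same tissue were the non-CINs, which are enriched for glutamatergic neurons and glia. No animal received a treatment, and the tissue of several litters was pooled for each sample. GFP is expressed from the *Gad1* locus, so *Gad1*, which encodes the GABA-synthesising enzyme GAD67, chose the cells and is no finding between them. Native ChIP-seq was run on chromatin digested by MNase in 2 replicates per mark and population, and a further 4 input samples served as background for the authors' peak calling.

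H3K27ac is laid down by the acetyltransferases CBP and p300 and marks active promoters and enhancers. H3K27me3 is written on the same lysine by EZH1 and EZH2, the catalytic subunits of Polycomb repressive complex 2, and lies over silent developmental genes, often across whole loci. A single histone tail cannot carry both, since acetylation and methylation occupy the same residue. In a sorted population, a promoter under peaks of both marks may carry them on different nucleosomes, alleles or cells, and these cannot be told apart in these data.

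The sequences below run from 250 bp upstream to 50 bp downstream of a TSS (300 bp, 5′ to 3′ on the gene's strand, RefSeq GRCm38.p6, the mm10 assembly) and are shown because the classes differed in CpG content, with each CpG in capitals. *Klf6*, a zinc-finger factor gene at chr13:5861232-5861531 (+), had the highest-ranked H3K27ac of the H3K27ac only genes and holds 22 CpGs. *Hand2*, a heart and limb bHLH factor gene at chr8:57320733-57321032 (+), had the highest-ranked H3K27me3 of the H3K27me3 only genes and holds 17. *Sst*, the gene of the interneuron peptide somatostatin at chr16:23890909-23891208 (-), was H3K27me3 only and holds 6. *Gad2* (GAD65, chr2:22621955-22622254, +) and *Dlx2* (a homeodomain factor of interneuron development, chr2:71546705-71547004, -) carried both marks and hold 16 and 29. *Alb*, the serum albumin gene of liver at chr5:90460647-90460946 (+), carried neither and holds 3.
Klf6: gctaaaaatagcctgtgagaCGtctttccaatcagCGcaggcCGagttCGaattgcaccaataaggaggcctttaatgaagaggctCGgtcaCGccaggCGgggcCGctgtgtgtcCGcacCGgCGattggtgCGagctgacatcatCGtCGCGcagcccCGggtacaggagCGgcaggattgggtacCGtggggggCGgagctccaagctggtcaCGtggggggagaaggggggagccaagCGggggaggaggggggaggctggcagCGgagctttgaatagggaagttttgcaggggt
Hand2: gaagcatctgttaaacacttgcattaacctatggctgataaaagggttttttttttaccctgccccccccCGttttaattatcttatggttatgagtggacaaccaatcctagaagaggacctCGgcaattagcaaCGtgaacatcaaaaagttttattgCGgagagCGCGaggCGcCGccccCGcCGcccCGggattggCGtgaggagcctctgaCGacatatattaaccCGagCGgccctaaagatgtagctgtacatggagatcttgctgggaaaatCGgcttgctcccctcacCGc
Sst: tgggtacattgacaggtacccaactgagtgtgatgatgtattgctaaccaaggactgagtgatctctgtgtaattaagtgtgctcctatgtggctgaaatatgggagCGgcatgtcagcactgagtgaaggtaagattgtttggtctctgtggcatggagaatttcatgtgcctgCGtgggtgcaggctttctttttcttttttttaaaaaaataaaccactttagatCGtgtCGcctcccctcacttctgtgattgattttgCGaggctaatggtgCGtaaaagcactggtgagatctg
Gad2: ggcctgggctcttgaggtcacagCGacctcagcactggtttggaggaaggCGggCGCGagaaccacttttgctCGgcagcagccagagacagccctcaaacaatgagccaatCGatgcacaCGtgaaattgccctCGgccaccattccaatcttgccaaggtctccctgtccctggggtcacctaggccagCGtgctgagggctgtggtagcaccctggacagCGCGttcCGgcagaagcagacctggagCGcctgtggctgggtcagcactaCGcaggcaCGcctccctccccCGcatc
Dlx2: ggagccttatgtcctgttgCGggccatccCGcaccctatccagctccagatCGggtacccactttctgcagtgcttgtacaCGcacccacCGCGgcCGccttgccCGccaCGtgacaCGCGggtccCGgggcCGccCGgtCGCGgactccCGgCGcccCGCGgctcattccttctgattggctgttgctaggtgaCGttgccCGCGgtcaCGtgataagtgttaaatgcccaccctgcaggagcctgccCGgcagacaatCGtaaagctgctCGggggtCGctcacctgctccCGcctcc
Alb: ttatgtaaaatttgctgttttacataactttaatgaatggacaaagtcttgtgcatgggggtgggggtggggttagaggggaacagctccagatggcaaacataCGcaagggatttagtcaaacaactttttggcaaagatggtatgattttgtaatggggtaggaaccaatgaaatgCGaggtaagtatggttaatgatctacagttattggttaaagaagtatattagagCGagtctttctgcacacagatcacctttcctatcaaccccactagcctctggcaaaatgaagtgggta

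The CIN lists held 62505 and 46310 H3K27ac peaks covering 56.3 and 40.8 Mb, and 38158 and 36662 H3K27me3 peaks covering 34.5 and 44.2 Mb. No peak was shorter than 200 bp, and the weakest peak kept in a list had a −log10 *q* of 2.21 to 2.60. The lists hold calls and no read counts, so the depth behind them is unknown and an absent peak means only that none was called. H3K27ac peaks lay over 54.2% and 49.4% of promoters, and H3K27me3 peaks over 9.99% and 12.8%. The means were 51.8% ± 3.41 (SD, n = 2) and 11.4% ± 1.97 (SD, n = 2), a difference of 40.4 percentage points with no overlap between the marks (exact permutation test, two-sided, *p* = 0.333). With 2 samples on each side, 0.333 is the smallest *p* the test allows, and it measures only the spread between samples pooled over litters.

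At the level of genes, 10236 were H3K27ac only (46.8% of all genes), 1935 H3K27me3 only (8.86%) and 9196 neither (42.1%). The 374 genes of the class both (1.71%) had at least 1 promoter under both marks. A further 110 genes (0.503%), called separate here, carried H3K27ac at one promoter and H3K27me3 at another with no promoter under both. These percentages are the background for the gene groups described below, whose members were read against them without a test.

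**Figure D1:**
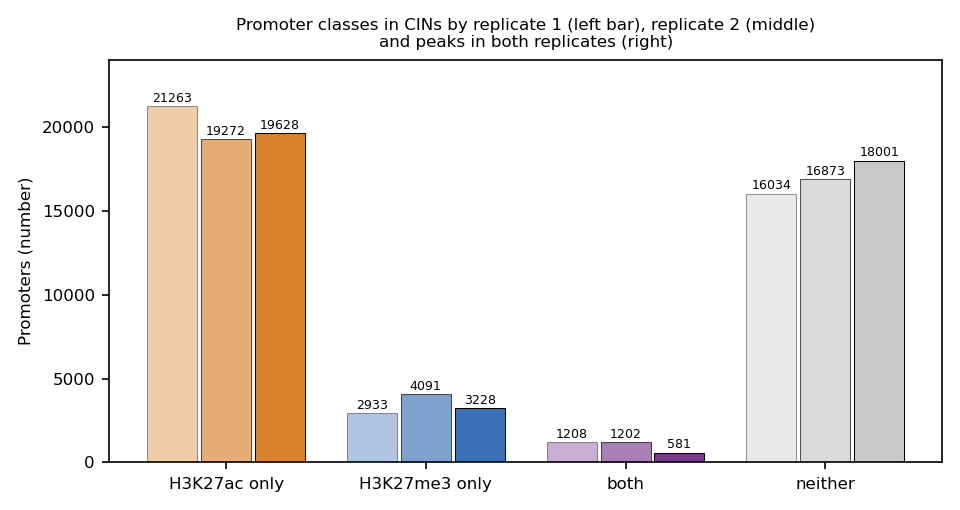
Number of promoters (y axis) in each class in CINs (x axis), by the peaks of replicate 1 alone (left bar), of replicate 2 alone (middle) and of both replicates (right), with the number above each bar. The class both holds 1208 and 1202 promoters in single replicates and 581 over both, while the other classes differ less between the bars.

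Most promoters fell into the same class in replicates 1 and 2 taken alone, 37381 of 41438 (90.2%). The class both was the exception. Replicate 1 alone put 1208 promoters in it and replicate 2 alone 1202, and 581 were shared, which is 48.1% of the first and 48.3% of the second. Of those of replicate 1, 469 (38.8%) were H3K27me3 only in replicate 2. Of those of replicate 2, 586 (48.8%) were H3K27ac only in replicate 1. The former group thus lacked H3K27ac peaks in replicate 2 and the latter H3K27me3 peaks in replicate 1. Likewise, 14.5% of the H3K27me3 only promoters had an H3K27ac peak in replicate 1 that replicate 2 lacked. Peaks over promoters of the class both were also short within the window. Under 50 bp was covered in the lesser of the H3K27ac lists at 5.16% of them, compared with 2.16% of H3K27ac only promoters, and in the lesser of the H3K27me3 lists at 6.54%, compared with 1.80% of H3K27me3 only promoters.

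H3K27me3 was rarer at promoters with H3K27ac than at those without. It was present at 2.87% of promoters with H3K27ac and at 15.2% of promoters without it. Read the other way, H3K27ac was present at 15.3% of promoters with H3K27me3 and at 52.2% of promoters without it. Each replicate gave the same order. In replicate 1 H3K27me3 lay over 5.38% of promoters with H3K27ac and 15.5% of those without, and in replicate 2 over 5.87% and 19.5%.

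Around the TSS, the classes differed in shape. H3K27ac only promoters had H3K27ac of both replicates at 84.3% of sites 250 bp downstream of the TSS, the highest point of that curve. H3K27me3 only promoters had H3K27me3 on both sides, at 69.5% of sites 500 bp upstream and 68.8% of sites 750 bp downstream, and at 57.2% at the TSS itself. At promoters of the class both, H3K27ac again peaked 250 bp downstream (65.1%), and H3K27me3 was at 60.1% of sites 1 kb upstream, 23.2% at the TSS and 39.1% of sites 1 kb downstream. No position had all 4 peaks at more than 16.7% of these promoters.

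**Figure D2:**
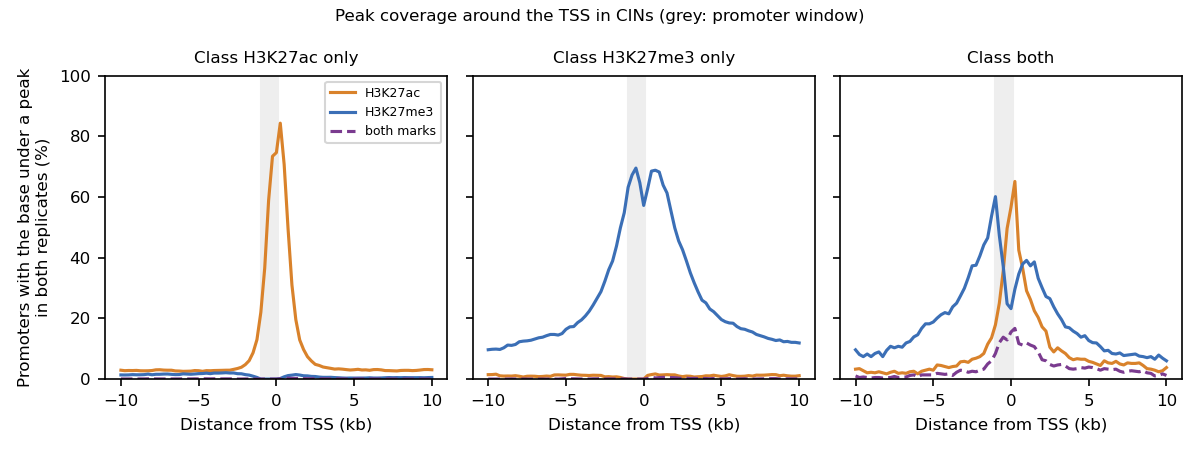
Share of promoters (%, y axis) covered by peaks of both replicates at each distance from the TSS (kb, x axis; upstream is negative), for H3K27ac, H3K27me3 and both marks at once (dashed) in the 3 classes with a mark, with the promoter window in grey. In the class both, H3K27ac is highest at 65.1% 250 bp downstream of the TSS, and H3K27me3 has a dip at the TSS (23.2%) between higher values on either side.

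Within this window, a promoter under both marks often held them side by side. The class asked for a peak of each mark in a window reaching 1 kb upstream but 100 bp downstream. H3K27me3 was highest at the upstream edge of that window (60.1%). The positions of the marks are therefore not independent of the rule. In 257 of 581 (44.2%) at least 1 base lay under all 4 peaks, and in replicates 1 and 2 alone 66.3% and 60.6% had a base under both marks. In 258 (44.4%) the marks lay apart with H3K27ac nearer the TSS, in 21 (3.61%) apart with H3K27me3 nearer, and in 45 (7.75%) the replicates of a mark shared no base. The overlap within a replicate was short, with a median of 135 bp and 98.0 bp of the 1100 bp window. The 4 peaks together covered the whole window at 10 promoters (1.72%).

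Peaks over the class both had shorter medians than those over the single-mark classes. H3K27me3 stretches, with peaks up to 500 bp apart joined, had medians of 1961 and 2796 bp in replicates 1 and 2, against 3282 and 4084 bp at H3K27me3 only promoters. H3K27ac stretches had medians of 1449 and 1105 bp, against 1676 and 1479 bp at H3K27ac only promoters. Stretches of 5 kb or longer lay over 33.0% and 41.7% of H3K27me3 only promoters in the H3K27me3 lists, against 22.7% and 25.1% of the class both. In the H3K27ac lists the order was the reverse, with 8.61% and 6.37% of the class both and 2.78% and 1.86% of H3K27ac only promoters under stretches of that length. Enrichment was scaled within a list, as the percentile of a peak's fold enrichment among all peaks of that list. Percentiles of different lists are ranks and not amounts, since the lists differ in length. On this scale H3K27ac at the class both had medians of 72.6 and 62.9, below the 88.8 and 85.2 of H3K27ac only promoters, and H3K27me3 had medians of 79.4 and 88.6, below 92.6 and 93.3.

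CpG content separated promoters with a mark from those with none. The median ratio of observed to expected CpG was 0.624 at H3K27ac only, 0.509 at H3K27me3 only, 0.619 at both and 0.191 at neither, with 0.433 over all promoters. High-CpG promoters, those with a 500 bp window of CpG ratio over 0.75 and GC over 55%, made up 52.9%, 32.0%, 48.4% and 5.60% of the 4 classes. Low-CpG promoters, with no window over 0.48, numbered 1970, 731, 47 and 14162, and 78.7% of the class neither were among them. Of the 12708 high-CpG promoters, 81.7% were H3K27ac only, 8.14% H3K27me3 only, 2.21% both and 7.93% neither. Single promoters did not all follow their class. Of those printed above, *Klf6* and *Dlx2* were high-CpG, with ratios of 0.716 and 0.795, *Hand2* and *Gad2* intermediate, with 0.745 and 0.469, and *Sst* and *Alb* low, with 0.254 and 0.163.

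**Figure D3:**
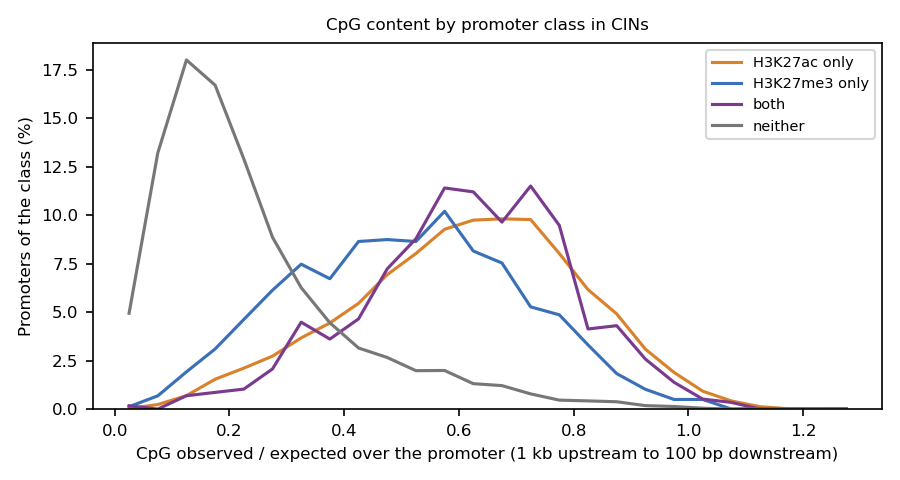
Distribution of the observed to expected CpG ratio over the promoter window (x axis) as a share of the promoters of each class (%, y axis). The class neither peaks at low ratios (median 0.191), and the class both (median 0.619) lies over the curve of H3K27ac only (median 0.624).

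Short motifs in the 300 bp around the TSS, searched on both strands and given as descriptions, also differed in frequency. The ETS core CCGGAAG was in 19.8% of H3K27ac only promoters, 4.21% of H3K27me3 only, 6.37% of both and 3.23% of neither, against 11.2% of all promoters. The NRF1 site GCATGCGC was in 5.89%, 1.08%, 1.55% and 1.36%, against 3.48% of all. TATAAA, the TATA box, was in 5.57%, 9.01%, 5.68% and 19.2%, against 11.8% of all. The homeodomain core TAATTA was in 2.08%, 3.00%, 2.58% and 8.37%, against 4.89% of all. The SP/KLF box GGGCGG was in 65.7%, 60.3%, 59.9% and 20.0%, against 45.4% of all. CCAAT (37.5%, 32.8%, 31.8% and 37.0%, against 36.8% of all) and the E-box CAGCTG (13.9%, 15.5%, 16.7% and 17.3%, against 15.5% of all) varied less between the classes. By the ETS and NRF1 letters, the class both lay nearer H3K27me3 only than H3K27ac only, although its CpG ratio over the 1100 bp window lay nearer H3K27ac only. Over the same 300 bp as the motifs, the median CpG ratio was 0.802 at H3K27ac only, 0.641 at H3K27me3 only and 0.731 at both. None of the 7 motifs contains another, and a match shows neither binding nor a cause. A TSS of another gene on the opposite strand lay within 1 kb upstream at 16.0% of H3K27ac only promoters and at 1.70% of H3K27me3 only, 5.85% of both and 1.16% of neither.

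The class H3K27ac only held the genes that every cell uses. All 36 genes of mitochondrial complex I, which passes electrons from NADH into the respiratory chain, were in it (background 46.8%), as were 76 of 80 ribosomal protein genes and 36 of 39 proteasome subunit genes. The exceptions included the testis paralogs *Rpl10l* and *Psma8* and the thymus subunit *Psmb11*, which had neither mark, and the immunoproteasome gene *Psmb8*, which was H3K27me3 only. The enzymes of the marks themselves were in this class in 10 of 11 cases, and *Ezh1* had an H3K27ac peak in replicate 1 alone, at percentile 28.0. *Ezh2* had H3K27ac percentiles of 93.4 and 93.0 and no H3K27me3 peak over its promoters. Zinc-finger genes named *Zfp* were H3K27ac only in 297 of 391 cases, histone genes in 53 of 67 and cell cycle genes in 13 of 15. Of 12 immediate early genes, which respond to activity, 9 were H3K27ac only, *Egr2* was both, and *Egr3* and *Egr4* were H3K27me3 only, *Egr3* with an H3K27ac peak in replicate 1 alone.

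The highest H3K27ac promoters belonged to *Klf6* (fold enrichment 14.0 and 20.4 in replicates 1 and 2, percentiles 100 and 100), *Hnrnpa3* (11.6 and 18.0) and *Usp38*. *Klf6* encodes a stress- and growth-regulated transcription factor, *Hnrnpa3* an RNA-binding protein and *Usp38* a deubiquitinase. All 3 were H3K27ac only in non-CINs too. The longest H3K27ac stretches over promoters of this class included those of developmental regulators. *Meis2*, a homeodomain factor of the ventral forebrain, had stretches of 34705 and 34957 bp, and *Sox2*, a neural progenitor factor, 32366 and 34845 bp. *Sox2* also had an H3K27me3 peak in replicate 2 alone, at percentile 17.0, and so stood in this class by 1 list.

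The class H3K27me3 only held regulators of other lineages. All 39 *Hox* genes, which set position along the trunk, and 40 of 42 patterning regulators of other lineages were in it (background 8.86%), and the other patterning regulators, *Gata1* and *Myf5*, had neither mark. Both counts were the same in replicate 1, in replicate 2 and in non-CINs. *Hand2* had H3K27me3 percentiles of 99.9 and 100 (fold enrichment 11.5 and 14.2) on stretches of 49535 and 51822 bp, with no H3K27ac. *Hox* genes are not separate observations, since 13 H3K27me3 only genes lay under 1 stretch of 137509 bp in replicate 1 and 9 under 1 of 68306 bp in replicate 2. Secreted WNT, BMP and FGF ligands were H3K27me3 only in 32 of 51 cases, monoamine, muscarinic and metabotropic glutamate receptors in 24 of 41, and potassium channels in 32 of 92. Across the class, 1034 of 1935 genes (53.4%) had no H3K27ac peak in either replicate from 5 kb upstream to the gene's end. That held for 39 of 39 *Hox* genes and 34 of 40 patterning regulators of the class.

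The genes of GABA metabolism carried both marks or H3K27ac only. *Gad1*, *Gad2* and *Slc32a1*, the vesicular GABA transporter, were 3 of 5 in the class both (background 1.71%), and *Abat*, for the breakdown of GABA, was H3K27ac only. *Gad2* (chr2:22622205-22693874) had H3K27ac percentiles of 91.7 and 82.5 and H3K27me3 percentiles of 96.2 and 97.3, on stretches of 11459, 9199, 8021 and 12724 bp. *Gad1* had H3K27ac percentiles of 84.5 and 72.2 and H3K27me3 percentiles of 93.4 and 97.3. *Slc32a1* had 71.7 and 72.4 for H3K27ac and 96.6 and 98.2 for H3K27me3. In these 3 genes the marks overlapped on the promoter itself, over all 1100 bp in *Gad1*, 946 bp in *Gad2* and 547 bp in *Slc32a1* in all 4 lists.

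Transcription factors of cortical interneurons and the subpallium, the ventral region where CINs are born, were divided between the classes. Of 24 factors, 10 were both, 8 H3K27me3 only, 5 H3K27ac only and 1 separate, and none had neither mark. In single replicates, 14 and 12 of the 24 were both. The class both held *Dlx1*, *Dlx2*, *Dlx5* and *Dlx6*, homeodomain genes needed for CIN migration, with *Sp9*, *Sox6*, *Maf*, *Nr2f1*, *Nr2f2* and *Prox1*. *Dlx1* had H3K27ac percentiles of 80.7 and 72.9 and H3K27me3 percentiles of 97.6 and 98.2. *Dlx2* had 88.1 and 67.3 for H3K27ac and 93.8 and 97.7 for H3K27me3. *Dlx5* had 89.4 and 66.5 against 99.0 and 99.4, on an H3K27ac stretch of 27999 bp in replicate 1 and an H3K27me3 stretch of 40099 bp. In each of these *Dlx* genes H3K27me3 ranked higher within its lists than H3K27ac within its own. The class both as a whole had that order too, with medians of 72.6 and 62.9 for H3K27ac and 79.4 and 88.6 for H3K27me3. The lists of the marks differ in length, so the ranks do not compare amounts. *Nr2f1*, a factor of caudally derived CINs, had the opposite order, with 96.8 and 94.5 for H3K27ac and 65.4 and 66.6 for H3K27me3. *Maf*, a factor of medially derived CINs, was low for both, with 42.5 and 49.0 against 43.6 and 34.3.

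The 8 factors under H3K27me3 only were *Lhx6*, *Lhx8*, *Nkx2-1*, *Sp8*, *Npas1*, *Gsx1*, *Gsx2* and *Isl1*. *Lhx6*, which directs the fate of CINs from the medial ganglionic eminence and stays on in them after birth, had H3K27me3 percentiles of 99.7 and 99.5 (fold enrichment 9.06 and 11.2) and no H3K27ac peak in either replicate from 5 kb upstream to its end. *Nkx2-1*, which acts before *Lhx6* and is switched off in migrating CINs, had 99.9 and 99.8. Both genes stood near the top of the H3K27me3 lists. *Sp8*, *Gsx2* and *Gsx1* had an H3K27ac peak in replicate 1 alone, at percentile 74.6 in *Sp8* and 62.9 in *Gsx2*, so that 5 of the 8 were H3K27me3 only in that replicate. The factors under H3K27ac only included *Meis1* and *Meis2*, homeodomain genes. *Meis1* had H3K27ac percentiles of 87.9 and 90.5 and *Meis2* 97.8 and 99.4, with no H3K27me3 peak over the promoter of either.

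Markers of mature CIN subtypes were mostly H3K27me3 only, in 12 of 16 cases in both replicates and in each alone. They included the peptides *Sst*, *Npy* and *Cck*, the calcium-binding proteins *Pvalb* and *Calb2*, and *Reln*. *Sst* had H3K27me3 percentiles of 90.2 and 93.6, *Npy* 99.1 and 97.8 and *Pvalb* 83.3 and 93.3, and none of these 3 had an H3K27ac peak over its promoter. In 10 of the 12 no H3K27ac peak lay from 5 kb upstream to the gene's end in either replicate. *Htr3a*, the serotonin receptor subunit of caudally derived CINs, was H3K27ac only at the low percentiles of 24.1 and 14.8, and *Chodl* was H3K27ac only as well. *Vip* and *Cort* had neither mark.

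**Figure D4:**
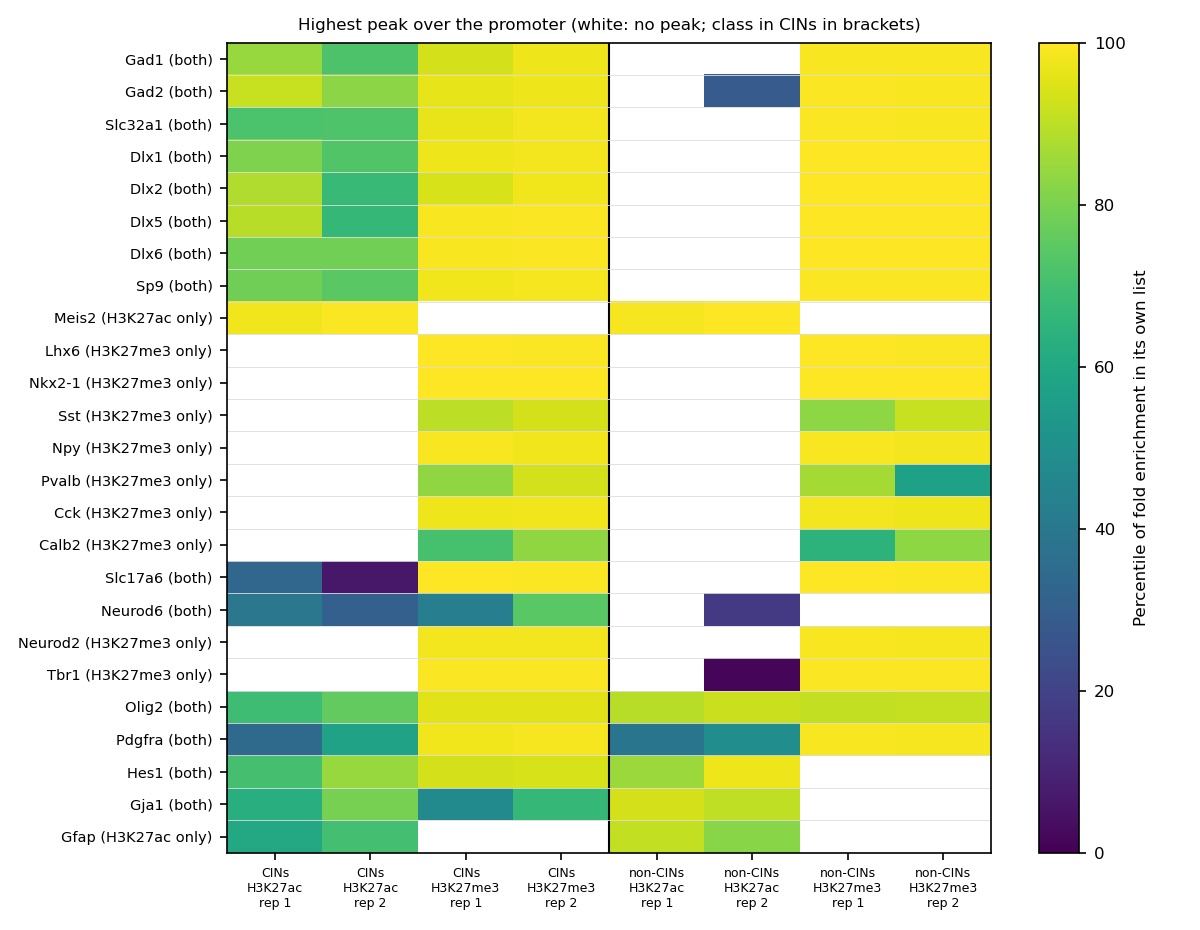
Percentile of fold enrichment within its own list (colour, 0 to 100; white, no peak) of the highest peak over the promoter, for named genes (rows, with the class in CINs) in the 4 CIN and 4 non-CIN lists (columns). *Gad2* and *Dlx2* are coloured in all 4 CIN lists, whereas *Lhx6*, *Sst* and *Npy* are coloured only for H3K27me3.

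Neuronal genes shared by all neurons were spread over the classes. Of 16 pan-neuronal and synaptic vesicle genes, 8 were H3K27ac only, 4 both (*Snap25*, *Tubb3*, *Stmn2* and *Ncam1*), 2 H3K27me3 only (*Syt1* and *Rbfox3*) and 2 neither (*Syn1* and *Elavl3*). *Snap25*, a SNARE protein of synaptic vesicle fusion, had H3K27ac percentiles of 85.5 and 75.7 and H3K27me3 percentiles of 73.8 and 59.1. *Syt1*, the calcium sensor of release, had 85.2 and 90.4 for H3K27me3 and an H3K27ac peak in replicate 1 alone, at 42.4 over 1 of its TSSs. *Syn1* and *Elavl3* likewise had H3K27ac in replicate 1 alone, and *Elavl3* had H3K27me3 in replicate 2 alone, so that replicate 1 on its own put 10 of the 16 genes in H3K27ac only, 1 in H3K27me3 only and 0 in neither. Ionotropic glutamate receptor genes were H3K27ac only in 10 of 16 cases (background 46.8%), and GABA-A receptor genes had neither mark in 11 of 19 (background 42.1%).

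Pallial and layer transcription factors, which act in the glutamatergic lineage, were both in 8 of 20 cases, H3K27me3 only in 8 and H3K27ac only in 4. Those under both included *Emx2*, *Pax6*, *Fezf2* and *Cux2*, and those under H3K27me3 only included *Emx1*, which had H3K27ac in replicate 1 alone, *Neurod2*, *Eomes* and *Tbr1*. Replicate 1 alone put 11 of the 20 in both, 5 in H3K27me3 only and 4 in H3K27ac only. Replicate 2 alone put 10, 8 and 2 in these classes. *Pax6*, a dorsal progenitor factor, had H3K27ac percentiles of 88.6 and 89.6 and H3K27me3 percentiles of 96.4 and 97.2. *Fezf2*, a factor of subcortical projection neurons, had 50.3 and 22.4 against 96.0 and 96.3. *Tbr1*, a factor of deep-layer neurons, had 99.4 and 99.6 for H3K27me3 and no H3K27ac. *Slc17a6*, a vesicular glutamate transporter gene, was both with H3K27ac at the low percentiles of 33.0 and 6.29 and H3K27me3 at 99.7 and 99.5, and *Slc17a7* was H3K27me3 only.

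Genes of glia also held H3K27ac in the CIN lists. Of 12 oligodendrocyte lineage genes, 5 were both (*Olig1*, *Olig2*, *Sox10*, *Pdgfra* and *Nkx2-2*), and the same 5 were both in non-CINs. With −log10 *q* of at least 4, 2 of the 12 were both in CINs. *Olig2*, a lineage-determining bHLH factor, had H3K27ac percentiles of 69.1 and 76.0 and H3K27me3 percentiles of 95.5 and 95.4. Of 12 astrocyte and radial glia genes, 9 were H3K27ac only, and *Hes1*, a Notch target, and *Gja1*, connexin 43, were both. *Hes1* had 70.5 and 84.7 for H3K27ac and 93.4 and 93.8 for H3K27me3. Microglia genes had neither mark in 11 of 12 cases, the other being *P2ry12* with H3K27ac, but in replicate 2 alone 4 of the 12 were H3K27ac only. Of 10 endothelial and pericyte genes, 4 were H3K27me3 only and none had H3K27ac in both replicates, and 1 was H3K27ac only in replicate 2 alone.

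A shorter list of defining markers put the 2 populations side by side, beside 49.1% of all genes with H3K27ac in CINs and 48.0% in non-CINs. The 9 interneuron markers were drawn from the genes of GABA metabolism and the factors above and hold no subtype marker. H3K27ac was over 8 of 9 interneuron markers in CINs and 1 of 9 in non-CINs, and over 7 of 8 and 1 of 8 without *Gad1*, the gene used for sorting. It was over 2 of 7 glutamatergic markers, 4 of 6 oligodendrocyte markers, 5 of 5 astrocyte markers, 1 of 5 microglia markers and 0 of 4 endothelial markers, with equal counts in CINs and non-CINs. The genes behind an equal count could differ, as *Neurod6*, a glutamatergic marker, was both in CINs and neither in non-CINs. The longer lists were not all equal. H3K27ac was over 16 of 24 interneuron factors in CINs and 11 in non-CINs, 2 and 0 of 16 subtype markers, 12 and 10 of 20 pallial factors, 1 and 0 of 4 glutamatergic genes, 1 and 2 of 12 microglia genes and 0 and 2 of 10 endothelial and pericyte genes. It was over 7 of 12 oligodendrocyte and 11 of 12 astrocyte genes in each population. Among genes of neurons in general, it was over 12 of 16 pan-neuronal and synaptic vesicle genes in CINs and 7 in non-CINs. For ionotropic glutamate receptor genes the counts were 12 and 6 of 16. The part of other cell types in the H3K27ac of these lists, and in the class both, was not tested.

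The 581 promoters of the class both in CINs were the least shared with non-CINs. In non-CINs 284 (48.9%) were both, 147 (25.3%) H3K27ac only, 130 (22.4%) H3K27me3 only and 20 (3.44%) neither. By comparison 94.2% of H3K27ac only, 88.1% of H3K27me3 only and 94.7% of neither promoters had the same class in non-CINs. In single replicates, 47.0% of the class both of CIN replicate 1 was both in non-CIN replicate 1 and 51.1% of that of replicate 2 in non-CIN replicate 2. The share between CIN replicates 1 and 2, 48.1%, lay between these values. The share of promoters in the class both was 2.92% and 2.90% in single CIN replicates and 2.80% and 2.29% in single non-CIN replicates. The means were 2.91% ± 0.0102 (SD, n = 2) and 2.55% ± 0.357 (SD, n = 2), a difference of 0.361 percentage points (exact permutation test, two-sided, *p* = 0.333, the smallest it allows).

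Genes of both lineages changed class in either direction or kept it. Of the 10 interneuron factors of the class both in CINs, 5 (*Dlx1*, *Dlx2*, *Dlx5*, *Dlx6* and *Sp9*) were H3K27me3 only in non-CINs, 4 (*Sox6*, *Nr2f1*, *Nr2f2* and *Prox1*) were both and 1 (*Maf*) was H3K27ac only. *Gad2* and *Slc32a1* were H3K27me3 only in non-CINs, and so were *Slc17a6*, of the glutamatergic genes, and *Cux2*, of the pallial and layer factors. *Gad2* had no H3K27ac peak in non-CIN replicate 1 and one at percentile 28.9 in replicate 2, with H3K27me3 at 99.3 and 99.2. *Dlx2* had no H3K27ac peak in either non-CIN replicate and H3K27me3 at 99.8 and 99.7. Its H3K27me3 percentile was thus higher in both non-CIN lists than in both CIN lists, and the same was true of *Gad2*, *Slc32a1*, *Dlx1* and *Dlx5*. These are ranks in lists of different length, with 38158 and 36662 H3K27me3 peaks in CINs and 45081 and 42575 in non-CINs. *Hes1*, *Gja1* and *Emx2* were both in CINs and H3K27ac only in non-CINs, and *Pax6* and *Fezf2* were both in each population. *Hes1* had H3K27ac at 85.1 and 97.5 and *Gja1* at 93.7 and 90.6 there, with no H3K27me3 peak. Over the list of 24 factors, non-CINs had 5 both and 13 H3K27me3 only, against 10 and 8 in CINs, and *Lhx6* and *Nkx2-1* were H3K27me3 only in both populations. These differences between single genes, with 2 samples per population, were not tested.

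**Figure D5:**
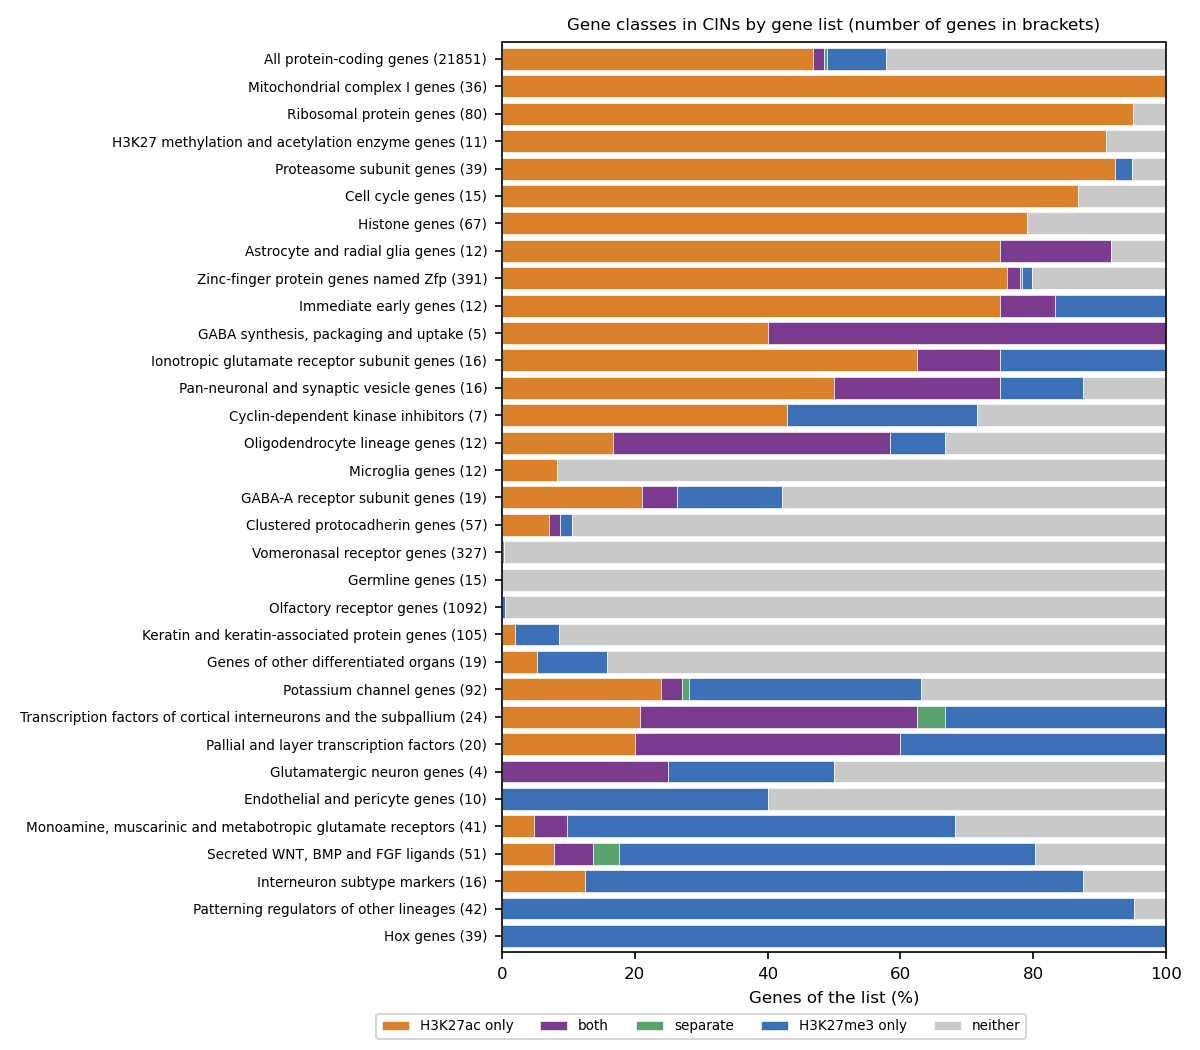
Share of the genes of each group (%, x axis) in each class in CINs, with all genes for comparison. Complex I and ribosomal genes are nearly all H3K27ac only, *Hox* genes are all H3K27me3 only, olfactory receptor genes nearly all neither, and the interneuron factors hold 41.7% both against 1.71% of all genes.

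The 374 genes of the class both were long, with a median span of 62.7 kb against 17.4 kb over all genes, 24.7 kb for H3K27ac only and 9.86 kb for neither. More than 1 TSS was annotated at 64.4% of them, compared with 51.3% of all genes, and a gene needs only 1 promoter under both marks to enter the class. Ranked by the lowest percentile of their 4 lists, the 8 highest genes of the class both included none of the interneuron factors. They were the predicted genes *Gm10800*, *Gm10801*, *Gm10722* and *Gm21738*, then *Zranb2*, *Ess2*, the predicted gene *Gm10717* and *Kazald1*. *Gm10800* stood at percentile 100 in all 4 lists with 241 bp shared, and *Gm10722* at 99.6 to 100 with 90.4% of its window soft-masked as repeat. The part of repeats in these peaks was not tested. Over the class, 8 of 581 promoters (1.38%) were more than 50% soft-masked, against 3.88% of all promoters. *Zranb2*, a splicing factor gene with percentiles of 98.1, 98.0, 98.7 and 98.3, had no base under both marks in either replicate.

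The 110 separate genes carried the marks at different promoters. *Pfdn4*, a prefoldin subunit gene, had H3K27me3 at percentiles of 99.0 and 99.1 over the TSS at chr2:170496428 and H3K27ac at 96.2 and 96.2 over 3 TSSs from chr2:170511235 to chr2:170511520. *Myo10*, an unconventional myosin of filopodia, had H3K27me3 at 97.6 and 95.8 over the upstream TSS at chr15:25622525 and H3K27ac at 93.1 and 96.7 over that at chr15:25752910. *Lmo3*, a LIM-only factor expressed in interneurons, had H3K27ac at 96.7 and 94.4 over 3 downstream TSSs and H3K27me3 at 94.9 and 92.6 over the most upstream, at chr6:138581968. *Satb1*, the only separate gene among the interneuron factors, had H3K27ac only at 2 TSSs and H3K27me3 only at another 2. In replicate 1 alone *Satb1* was both. In these 4 genes H3K27me3 lay upstream of H3K27ac, but the class as a whole had both orders. H3K27me3 was upstream of every TSS with H3K27ac in 60 of the 110 genes, H3K27ac upstream of every TSS with H3K27me3 in 45, as in *Stk32c* and *BC049715*, and the TSSs alternated in 5. *Pfdn4*, *Myo10*, *Lmo3* and *Satb1* were separate in non-CINs too, as were 72 of the 110 (65.5%).

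The 9196 genes of the class neither included 1087 of 1092 olfactory receptor genes, 326 of 327 vomeronasal receptor genes, 96 of 105 keratin genes and 15 of 15 germline genes (background 42.1%). Genes of other differentiated organs had neither mark in 16 of 19 cases, and *Alb* had no peak in any of the 4 lists. Clustered protocadherin genes, which give neurons surface identities, had neither mark in 51 of 57 cases over both replicates, but in replicate 1 alone 28 of them were H3K27me3 only and 20 neither. On chromosome X 62.9% of 948 genes had neither mark, against 40.6% of 20720 autosomal genes. Widening the window to 2 kb on each side left 86.6% of the neither promoters without a mark, and from 5 kb upstream to the gene's end 5531 of the 9196 genes (60.1%) had no peak of either mark in any CIN list.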

How the data were processed

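The authors aligned ChIP and input reads of each sample to mm10 with BWA *mem* 0.7.15, filtered them with SAMtools and ran MACS2 in broad mode on every replicate with its own input as control, without a fragment model or local background. The submitters' processing notes name MACS2 2.2.7 and the study's methods an earlier version. The deposited lists give a score for each peak, which the authors' peak caller scaled from its *q* value. As deposited, fold enrichment divides the ChIP signal of a peak by that of the input. Significance was deposited as −log10 *p* and −log10 *q* from the authors' caller, and weak calls had been removed by then. The reads behind a list are not used here.

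Peaks were laid over promoters of GENCODE vM21 basic. A gene is both if any promoter is both, and separate if it has single-mark promoters of each kind and none under both. For enrichment and length, the highest peak over a promoter was taken, after joining peaks up to 500 bp apart for length. Sequence came from RefSeq GRCm38.p6. The named genes were the 8 highest by percentile and the 5 longest of each class, the members of the short lists, the exceptions of the long lists, the highest separate genes and the genes of opposite class in the 2 populations, and some of these are not reported here. The members and the 32 gene lists were chosen with earlier results of these data known. The exact permutation test across samples was the only test. Alternatives were stricter peaks, single replicates, other windows, overlaps and annotations, and a replicate block. Calculations ran in Python 3.11.15 with pysam 0.24.0 for sequence, NumPy 2.4.6, matplotlib 3.10.9 and SciPy 1.17.1, and were tested on simulated data.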

Additional observations from a re-analysis of the deposited data

Results flagged for a closer look

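A few promoters carried opposite marks in the 2 populations in every list. At 11 promoters of 8 genes both CIN replicates had H3K27ac and no H3K27me3, and both non-CIN replicates had H3K27me3 and no H3K27ac. These genes were *Chga* (chromogranin A of secretory granules), *March11*, *Ly6h*, *March9*, *Dlgap3* (a postsynaptic scaffold), *Csrnp3*, *Gpr85* (a brain receptor) and *Fam155a*. *Csrnp3* had H3K27ac percentiles of 87.3 and 82.3 in CINs and H3K27me3 percentiles of 77.0 and 53.4 in non-CINs. *Gpr85* had 83.5 and 81.1 in CINs, and H3K27me3 percentiles of 5.03 and 50 in non-CINs. Other promoters of a gene could differ. *Ly6h* had a further TSS at chr15:75567255 with both marks in CINs, where H3K27me3 stood at 90.3 and 36.8, and *Csrnp3* and *Gpr85* were separate in non-CINs, with H3K27ac at another TSS.

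At 7 promoters of 6 genes the order was the reverse, with H3K27me3 in CINs and H3K27ac in non-CINs. These were *BC067074*, *Nid2* (a basement membrane protein), *Ephb4* (a vascular ephrin receptor), *Smad6* (an inhibitor of BMP signalling), *Rreb1* and *Samd5*. *Smad6* had H3K27me3 percentiles of 92.8 and 94.7 in CINs and H3K27ac percentiles of 65.5 and 64.9 in non-CINs. Promoters of 1 gene that lie a few bases apart share their peaks, and the difference between the populations was not tested at any of these genes.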

How the results depend on the processing

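The class both depended most on the settings. It held 304 promoters and 190 genes (60 separate) with −log10 *q* of at least 4, 311 and 210 with at least 200 bp covered, 58 and 43 (45 separate) with at least 50% covered, 1371 and 812 from 2 kb upstream to 500 bp downstream, 2067 and 1271 with a peak in either replicate, and 1868 and 1094 within 2 kb on each side, a window added after seeing the data. At 50% covered, 11670 promoters and 6381 genes were H3K27ac only, and 27395 and 13879 neither. With 1 TSS per gene the 4 classes held 9768, 1890, 297 and 9896 promoters. RefSeq transcripts gave 196 separate genes. At the stricter *q* the mean share of the class both was 1.44% in CINs and 1.33% in non-CINs. Leaving out a replicate gave 1202 to 1208 promoters and 750 to 751 genes both, with marks sharing a base at 60.6% to 66.3%, and the same class in non-CINs at 93.1% to 94.5% of H3K27ac only, 84.2% to 86.9% of H3K27me3 only and 93.6% to 94.9% of neither promoters. A replicate block asked for the same class in each numbered pair. With it, 73 genes were separate and no other class count moved by over 1.5 times. Deviations of same-numbered samples in peak presence had a correlation of -0.0646, which cannot exclude a shared pool or batch. Replicate 1 held more H3K27ac peaks than replicate 2 for CINs (62505 against 46310) as well as non-CINs (59667 against 46040). H3K27me3 lay over fewer promoters in replicate 1 of each population (9.99% against 12.8%, and 10.7% against 12.4%). Whether a number marks 1 pool of tissue was not tested. Of 32 gene lists, 5 moved under some alternative, among them oligodendrocyte genes (2 both at the stricter *q*), immediate early genes (4 H3K27ac only within 2 kb) and pallial factors (5 H3K27me3 only in replicate 1). The cause was not tested.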

Other observations

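Cyclin-dependent kinase inhibitors, which stop the cell cycle, were divided by gene. *Cdkn1b*, *Cdkn2c* and *Cdkn2d* were H3K27ac only, *Cdkn2a* and *Cdkn2b* H3K27me3 only, and *Cdkn1a* and *Cdkn1c* neither. In replicate 2 alone *Cdkn1a* and *Cdkn1c* were H3K27me3 only as well.

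On chromosome Y, 179 of 183 genes had neither mark in CINs. Potassium channel genes held 22 H3K27ac only, 3 both and 34 neither beside those under H3K27me3 only, and in single replicates 13 and 8 of the 92 were both.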
